A study of Schmidtea mediterranea with 60 samples.

Results

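A set of 157 transcripts, of 28742 in the count table, lost RNA at planarian wounds within the first day after amputation in control animals. The set was defined on control libraries: a member's mean level had to lie at least 2-fold below that at 0 hours post-amputation (hpa) at 3, 6, 16 or 24 hpa, with every library of that time below every library of 0 hpa. Levels were in CPM (the counts of a transcript scaled to a common library total) and were compared as log2(CPM + 0.5). A member also had to stay less than 2-fold above its 0 hpa level at every later time, differ by under 0.6 (log2) between the RNAi conditions at 0 hpa, and vary by less than 4-fold among the control libraries at 0 hpa. The fall in control therefore chose the members and is given below as a description without a test.

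The RNA came from a clonal asexual strain of the flatworm Schmidtea mediterranea (CIW4), and the tissue was the anterior-facing wound of tail fragments. The animals had eaten liver with double-stranded RNA in 4 feedings, the last 7 days before the cut, directed at bmp4 or, in the control, at unc-22, a gene of the nematode Caenorhabditis elegans. Both conditions were sampled at 0 hpa, at 3 and 6 hpa, and then at 16, 24 and 48 hpa, with 5 libraries each, 60 libraries in all, and a library pooled 5 wounds. The fed RNA lowers its target throughout the body and not in a chosen cell type, and the wound pieces held every tissue near the cut.

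Planarians rebuild missing parts from neoblasts, the dividing stem cells of the adult. The first hours after a cut bring wound closure and a burst of wound-induced transcription at any injury, and the following days bring the response that replaces lost tissue. bmp4 encodes a bone morphogenetic protein, a signal released by cells, that patterns the dorsal-ventral axis.

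Library totals ranged from 5.92 to 23.9 M (mega) counts, with a median of 17.3 M. The bmp4 transcript (dd_Smed_v6_17402_0_1) went against its label at 0 hpa, where the bmp4-labelled libraries held 5.83, 5.84, 6.40, 6.84 and 8.73 CPM and the control libraries 2.58 to 3.10 CPM. It lay below every control library at 6 hpa and at 48 hpa, where it had 0.539 to 3.06 CPM against 4.90 to 6.60 CPM, and overlapped with control at 3, 16 and 24 hpa. The transcript equinox (dd_Smed_v6_20318_0_1) was lower than every control library at each of the 6 times, with 1.20 ± 0.25 CPM against 4.60 ± 0.42 CPM at 0 hpa (SD, n = 5). The 30 libraries of this condition are therefore named bmp4-labelled, and the directions drawn below rest on that label.

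The members were of middling abundance. In control at 0 hpa their mean level had a median of 8.29 CPM and a range of 0.738 to 332 CPM, beside a median of 9.25 CPM over the 18510 transcripts that passed a filter on low counts. Of the members, 50 had under 5 CPM and 11 over 100 CPM. All 157 passed the filter. Their summed share of the control counts went from 0.422% to 0.488% at 0 hpa to 0.182% to 0.206% at 24 hpa and 0.186% to 0.208% at 48 hpa. In bulk RNA, fewer cells of a type and less RNA per cell cannot be told apart.

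The entry rule had a sharp edge. Before the 0 hpa band was applied, 238 transcripts had the fall and the separation in control. The band removed 81 of them, with 59 higher and 22 lower under the bmp4 label, and the 4-fold limit removed none. The member with the smallest fall was at -1.001 (log2) and the nearest separated transcript outside was at -0.996. Just inside, 50 members had a deepest fall of less than 1.1, and just outside 70 separated transcripts had one of 0.9 to 1. The median deepest fall was -1.17 and the largest was -2.57. A pseudocount of 1 left 104 members and one of 0.1 gave 360, since the 2-fold limit acts on the log2 scale with the pseudocount.

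The score of a library, the mean log2(CPM + 0.5) over the 157 transcripts, showed the course in both conditions. In control the 5 libraries had scores of 3.36, 3.44, 3.47, 3.53 and 3.65 at 0 hpa. At 24 hpa they had 2.34, 2.42, 2.44, 2.49 and 2.50, and at 48 hpa 2.41, 2.50, 2.53, 2.54 and 2.56. The control score therefore stayed near its 24 hpa level at 48 hpa, a time that the rule limited only from above. The bmp4-labelled libraries began at 3.27, 3.37, 3.41, 3.42 and 3.57, within the range that the band enforces. They reached 2.54, 2.64, 2.72, 2.73 and 2.74 at 24 hpa and stood at 2.91, 2.92, 2.93, 2.99 and 3.02 at 48 hpa. No library of that 48 hpa group overlapped with its own group at 24 hpa or with control at 48 hpa.

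**Figure D1:**
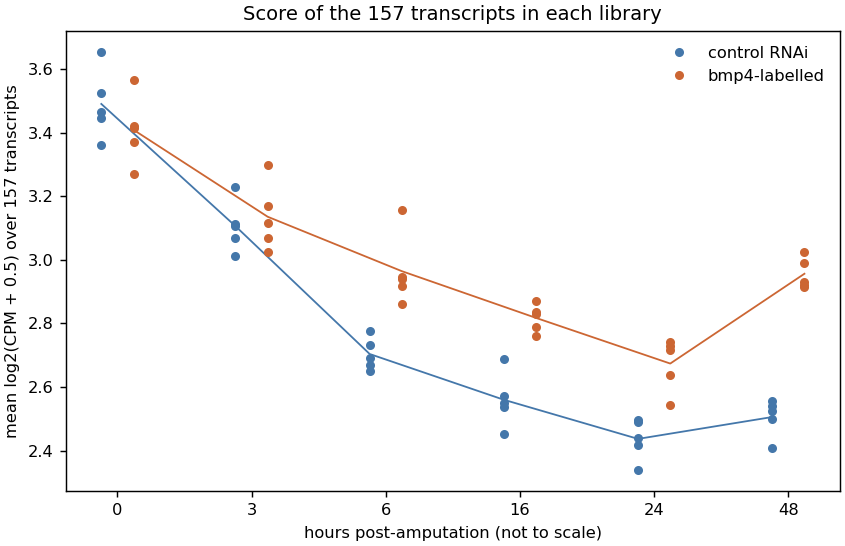
Score of each library, the mean log2(CPM + 0.5) over the 157 transcripts, against time after amputation, with 5 points per group and lines through the group means. The control libraries, which chose the members, went from 3.36 to 3.65 at 0 hpa to 2.41 to 2.56 at 48 hpa, and the bmp4-labelled libraries stood at 2.91 to 3.02 at 48 hpa.

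The members did not fall at the same time. The rule was first met by 8 transcripts at 3 hpa, by 46 at 6 hpa, by 56 at 16 hpa and by 47 at 24 hpa, and these times give 4 timing classes. The 8 earliest were lowest in control at 6 hpa, with a median change of -1.50 (log2), and had partly returned by 24 hpa, where the median was -0.61. The 46 of 6 hpa had a median of -1.18 at that time and -0.70 at 24 hpa. In contrast, the 56 of 16 hpa held -1.13 at 16 hpa and -1.12 at 24 hpa, and the 47 of 24 hpa declined step by step from -0.09 at 3 hpa to -1.12. At 48 hpa 68 of the 157 still lay at least 2-fold below 0 hpa in control, 24 were within 0.5 (log2) of it or above, and 2 were above it.

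The bmp4-labelled libraries passed through the same order of classes with smaller median changes up to 16 hpa. The 8 earliest transcripts had medians of -0.92 at 3 hpa and -0.94 at 6 hpa, came back to -0.12 at 16 hpa and went down again to -0.64 at 24 hpa and -0.81 at 48 hpa. The 56 of 16 hpa had medians of -0.79, -0.81 and -0.43 from 16 hpa on. The 47 of 24 hpa had -0.77 at their entry time and -0.53 at the last. Set beside control at the same time, the median difference over all members (bmp4-labelled minus control, log2) was 0.06, 0.30, 0.26 and 0.27 at 3, 6, 16 and 24 hpa. These differences are a description without a test, since low control values at those times brought the transcripts into the set.

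**Figure D2:**
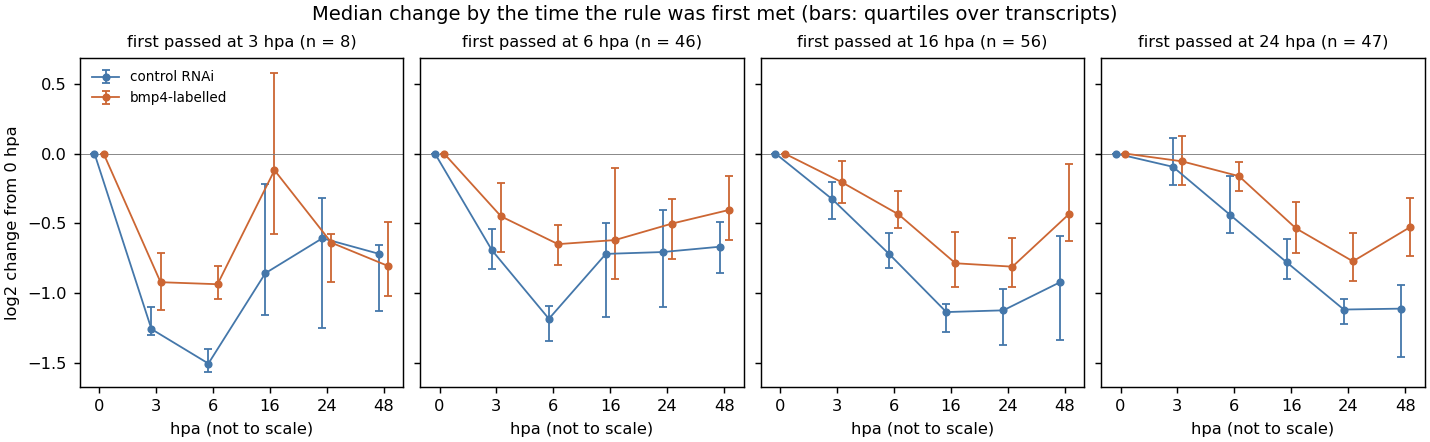
Median log2 change from 0 hpa in each timing class, control and bmp4-labelled libraries side by side, with bars for the quartiles over transcripts. The control medians at the entry times were chosen by the rule, and at 48 hpa the class of 16 hpa stood at -0.92 in control and -0.43 in the bmp4-labelled libraries.

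Under the bmp4 label most members were also below their own 0 hpa level by 16 and 24 hpa, and few were above it. The later libraries of this condition did not enter the rule, but those of 0 hpa did through the 0.6 band, which ties them to the control level that had to be high. The counts against 0 hpa and their p-values are therefore not independent of the rule. This also applies to each fold change and p-value against 0 hpa given below for single transcripts. The comparisons of 24 against 3 hpa and of 48 against 24 hpa, given further on, use no library of the rule. At 3 hpa 54 of 157 members (34.4%) had fallen and 6 had risen, beside 4.56% of the 18510 transcripts tested that fell and 5.97% that rose. At 6 hpa 84 (53.5%) had fallen and 0 had risen, beside 5.4% and 7.75%. At 16 hpa 118 (75.2%) had fallen and 4 had risen, beside 13.5% and 14.7%. At 24 hpa 132 (84.1%) had fallen and 1 had risen, beside 14.5% and 18.1%. At 48 hpa 103 (65.6%) were lower and 0 higher, beside 12.4% and 13.1%.

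The sizes were moderate. The median log2 fold change of the members in the bmp4-labelled libraries was -0.30, -0.50, -0.78, -0.85 and -0.59 at the 5 later times in order, where that of all transcripts tested lay between 0.00 and 0.02. A called fall of at least 2-fold was seen in 15, 22, 46, 48 and 27 members at the 5 times, beside 0.529%, 0.389%, 1.2%, 1.88% and 1.69% of all transcripts tested. The CPM of the later and the 0 hpa libraries did not overlap in 93 members that were lower at 24 hpa, beside 5.21% of the transcripts tested. Calls came from edgeR's quasi-likelihood test over all transcripts at an adjusted p under 0.05, and the 5 comparisons share the 0 hpa libraries. When libraries were scaled by their totals alone, the median of all transcripts at 48 hpa moved by 0.10 (log2) and 93 members were lower and 2 higher, beside 6.84% and 24.8% of all transcripts tested under that scaling.

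The calls followed the timing classes. At 3 hpa 7 of the 8 earliest transcripts and 27 of the 46 of 6 hpa were lower, against 15 of 56 and 5 of 47 in the later classes. At 6 hpa the counts were 8 of 8, 36 of 46, 32 of 56 and 8 of 47. By 24 hpa the order had turned, with 6 of 8, 29 of 46, 53 of 56 and 44 of 47 lower. Of all transcripts tested, 4.56%, 5.4% and 14.5% were lower at 3, 6 and 24 hpa. Over the 5 times 22 members were lower at each time, 36 at 4 times, 59 at 3, 24 at 2 and 12 at 1 time. For 4 members no fall was called at any time.

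The question open to a test was whether the set also declined between libraries that the rule had not used, and the comparison of 24 with 3 hpa used 2 such groups. Here 86 members were lower and 7 higher, beside 7.86% and 10.6% of all transcripts tested, with a median of -0.54 (log2). The later classes carried the fall, with 40 of the 47 members of 24 hpa and 34 of the 56 of 16 hpa lower, and 12 of the 46 of 6 hpa. None of the 8 earliest was lower and 1 was higher, with a median of 0.21.

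**Figure D3:**
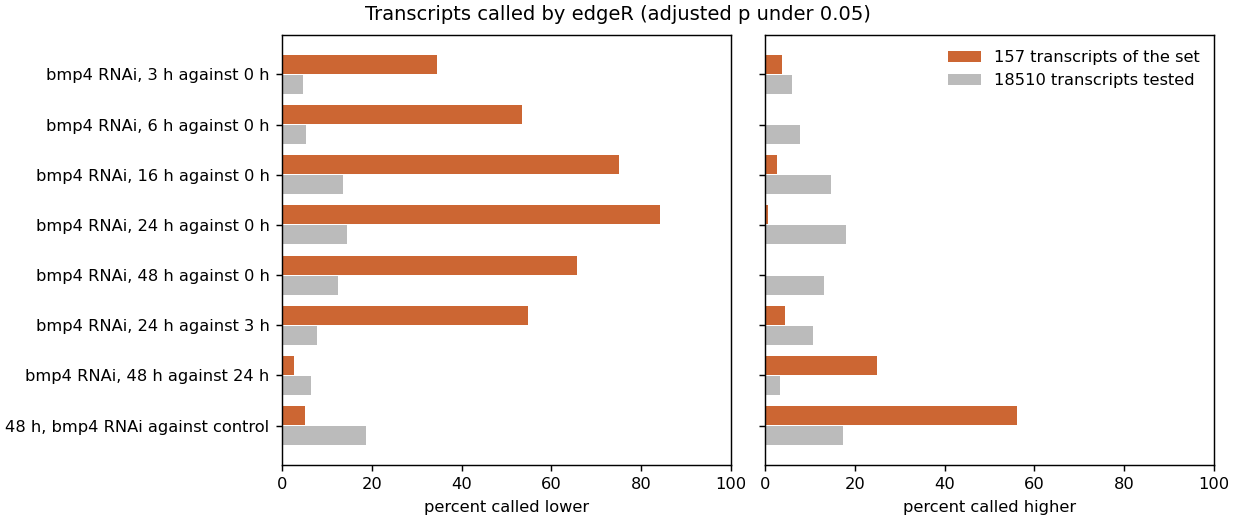
Percent of the 157 transcripts and of all 18510 transcripts tested that edgeR called lower (left) or higher (right) in each comparison, at an adjusted p under 0.05. Between 34.4% and 84.1% of the set was lower than at 0 hpa in the bmp4-labelled libraries, and 56.1% was higher than control at 48 hpa.

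From 24 to 48 hpa part of the set came back in the bmp4-labelled libraries. There 39 members rose and 4 fell, beside 3.3% and 6.33% of all transcripts tested, and the median was 0.22 (log2). The class of 16 hpa held 22 of the 39, with a class median of 0.44. All 39 had been called lower at 24 hpa than at 0 hpa, as had 132 of the 157 members. The 2 calls share the 24 hpa libraries, so low values there favour both. Of the 132 members, 94 were still lower than 0 hpa at 48 hpa. Those calls share the 0 hpa libraries, and the like count over all transcripts tested was not made. A fit of these 2 groups alone called 23 members higher and 2 lower, beside 0.701% and 1.57% of the 16967 transcripts it tested.

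Set beside control at 48 hpa, most members had higher levels in the bmp4-labelled libraries. This comparison is given as a description, since the rule asked for a fall in control alone, so that transcripts that fell further in control than in the bmp4-labelled libraries were the more likely to enter, and it also limited the control libraries of 48 hpa from above. The same holds for each fold change and p-value against control at 48 hpa given for single transcripts. By the fit, 88 of the 157 (56.1%) were called higher and 8 lower, beside 17.3% and 18.6% of all transcripts tested, with a median log2 fold change of 0.46. The difference reached 2-fold in 31 of the 88 and in 5 of the 8, beside 2.54% and 1.83% of all transcripts tested that were called at this size. The CPM of the 2 groups did not overlap in 64 of the 88. They also parted in 8 members with lower CPM, of which 7 were among the 8 called lower. Of the transcripts tested, 8.76% had no overlap and were higher and 13.3% had none and were lower. By class 33 of the 47 members of 24 hpa were higher and 0 lower, 35 of the 56 of 16 hpa were higher and 1 lower, 18 of the 46 of 6 hpa were higher and 5 lower, and 2 of the 8 earliest were higher and 2 lower. Of the 88, 52 were also still below 0 hpa in the bmp4-labelled libraries, and for 36 no difference from 0 hpa was called. Both calls use the bmp4-labelled libraries of 48 hpa, and the like counts over all transcripts tested were not made.

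The mitochondrial share of counts, over 8 transcripts named in the study's methods, was 0.278% to 0.711% in the bmp4-labelled libraries at 48 hpa and 0.320% to 0.559% in control, and its part in these differences was not tested.

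**Figure D4:**
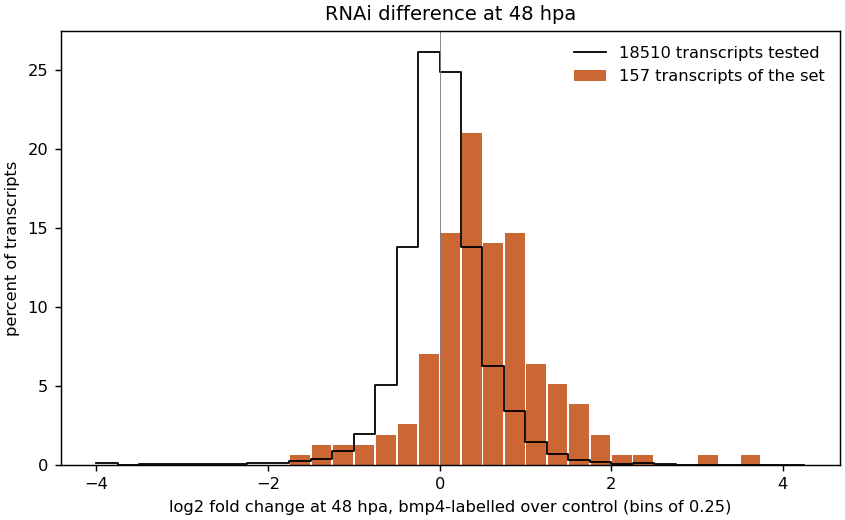
Distribution of the log2 fold change at 48 hpa, bmp4-labelled over control, for the 157 transcripts (bars) and all 18510 transcripts tested (line), in percent of transcripts per bin of 0.25. The set had 132 members above 0 (84.1%) beside 51.2% of all transcripts, and 19.7% at or above 1 beside 2.88%.

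Identities were at hand for 10 of the 157, from the first 1200 rows, in the text order of the IDs, of a longer sheet that gives the best human protein match or the Pfam domains of the longest open reading frame. The later rows were not used here, and the other 147 members lie outside the rows read, so the 10 are a slice by ID and not by function. Roles are those of the human proteins, a best match does not show that the planarian protein does the same, and reads shared with near-identical copies or antisense partners make any single value uncertain. No genome position was given for any of them.

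dd_Smed_v6_10221_0_1 matched human JAG1, a Jagged ligand that sits in the membrane and binds the receptor Notch on the neighbouring cell, and carried DSL and EGF domains. In control it had 13.2, 15.6, 16.8, 17.5 and 18.0 CPM at 0 hpa and 5.20, 7.10, 7.92, 7.99 and 9.47 CPM at 24 hpa. Under the bmp4 label it went from 15.6, 16.4, 16.6, 16.9 and 17.6 CPM to 7.32, 8.44, 9.87, 11.99 and 12.5 CPM, so the times did not overlap there either. That fall was -0.77 (log2, SE 0.10, adjusted p = 3.3e-08 by edgeR). At 48 hpa the 5 libraries held 15.1, 15.5, 16.4, 16.4 and 18.0 CPM, a change of -0.14 from 0 hpa (SE 0.10, adjusted p = 0.33), and control held 9.92, 10.02, 10.1, 10.2 and 11.3 CPM. The difference between conditions was 0.68 (SE 0.10, adjusted p = 2.5e-07).

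dd_Smed_v6_10104_0_1 matched human MIB2, a RING-type ubiquitin ligase that acts on Notch ligands, and was among the less abundant members. Control libraries had 2.37 to 3.48 CPM at 0 hpa and 0.711 to 1.095 CPM at 6 hpa, from 10 to 18 counts each. With the bmp4 label it had 3.30, 3.41, 3.48, 3.71 and 4.96 CPM at 0 hpa and fell by 1.18 at 6 hpa and by 1.14 at 16 hpa on the log2 scale (SE 0.22 for each, adjusted p = 6.1e-05 and 5.0e-05). At 24 hpa they were back at 3.36, 3.49, 3.55, 3.96 and 5.65 CPM, while control held 0.550 to 1.96 CPM. At 48 hpa the values were 2.80, 2.96, 4.25, 5.601 and 6.12 CPM against 0.950, 1.02, 1.13, 1.53 and 1.65 CPM in control, which do not overlap. That difference was 1.81 (log2, SE 0.23, adjusted p = 2.2e-09). From 0 to 24 hpa its change was 0.04 (SE 0.20, adjusted p = 0.91), at a time when the JAG1-like transcript was still lower.

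Of the receptors, dd_Smed_v6_10130_0_1 matched human GRM3, a metabotropic glutamate receptor that lowers transmitter release at synapses. It was level in control up to 3 hpa, with 32.1 ± 4.2 CPM at 0 hpa and 30.4 ± 3.8 CPM at 3 hpa, and had 15.5 ± 1.9 CPM at 24 hpa (SD, n = 5). In the bmp4-labelled libraries it had 25.7, 26.8, 29.4, 34.01 and 34.4 CPM at 0 hpa and 14.3, 15.7, 15.8, 18.9 and 21.3 CPM at 24 hpa. This was a fall of 0.84 on the log2 scale (SE 0.11, adjusted p = 6.8e-09), with no overlap. At 48 hpa it had not returned, with 14.9, 16.6, 17.1, 18.9 and 21.9 CPM against 11.001, 13.1, 14.4, 14.8 and 16.5 CPM in control. The groups overlap, and the difference was 0.38 (SE 0.11, adjusted p = 0.0044).

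dd_Smed_v6_10178_0_1 matched human GPR108, a membrane protein with several passes, and was close to the limit of detection. Its control libraries had 9 to 30 counts at 0 hpa and 1 to 4 at 6 hpa, which is 0.474 to 1.78 CPM and 0.0575 to 0.243 CPM. At 48 hpa the bmp4-labelled libraries had 0.527, 1.04, 1.45, 1.53 and 1.89 CPM and control had 0.305 to 0.824 CPM, so the lowest library lay within the control range. The difference was 1.33 (log2, SE 0.39, adjusted p = 0.0052). Its bmp4-labelled libraries had 1.04 to 2.02 CPM at 0 hpa, and it was called lower at 3 hpa (log2 fold change -1.34, SE 0.39, adjusted p = 0.020) and at 16 hpa (-1.06, SE 0.37, adjusted p = 0.023). The first call was lost without replicate 1 of 0 hpa or replicate 3 or 5 of 3 hpa (adjusted p = 0.053 to 0.091), and the second without replicate 1 or 4 of 0 hpa or replicate 1, 4 or 5 of 16 hpa (adjusted p = 0.054 to 0.092). The changes at 6, 24 and 48 hpa, of -0.82, -0.66 and -0.34, were not called in the main fit. The fall at 6 hpa was called without replicate 3 of 6 hpa (-1.20, adjusted p = 0.022 by edgeR). That at 24 hpa was called in a fit of the compared groups alone (-0.68, adjusted p = 0.048 by edgeR).

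dd_Smed_v6_10318_0_1 matched human LDB3, a PDZ and LIM domain protein of the Z-disc that anchors the contractile filaments of muscle. In control its mean declined at each time, and the libraries went from 21.3, 21.97, 26.0, 29.1 and 29.3 CPM at 0 hpa to 9.22, 9.29, 9.89, 10.3 and 10.8 CPM at 24 hpa and 7.62, 7.94, 8.43, 8.63 and 8.74 CPM at 48 hpa. Under the bmp4 label it started lower, with 16.6 to 20.9 CPM, and fell to between 9.94 and 12.1 CPM at 24 hpa (log2 fold change -0.75, SE 0.11, adjusted p = 9.3e-08). It then rose to 15.2, 17.1, 18.5, 18.9 and 20.3 CPM at 48 hpa (0.62 from 24 hpa, SE 0.11, adjusted p = 2.8e-05). The 48 hpa values thus parted completely, by 1.14 (SE 0.11, adjusted p = 3.4e-13).

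The transcript with a DUF3421 domain, a domain of unknown function, had a like course. dd_Smed_v6_1040_0_1 had 53.9, 54.4, 64.3, 69.5 and 70.9 CPM in control at 0 hpa, 15.5, 16.1, 18.0, 19.6 and 21.6 CPM at 24 hpa and 21.2, 22.8, 23.3, 23.6 and 24.2 CPM at 48 hpa. The bmp4-labelled libraries had 35.4, 39.9, 42.0, 42.5 and 46.8 CPM at 0 hpa, close to the edge of the 0.6 band. Their lowest level came at 16 hpa, with 18.5 to 25.04 CPM (log2 fold change -1.04, SE 0.13, adjusted p = 7.0e-09), and at 48 hpa they had 48.7, 49.3, 51.1, 51.6 and 51.7 CPM. The rise from 24 to 48 hpa was 0.69 (SE 0.13, adjusted p = 0.00014) and the difference from control at 48 hpa was 1.15 (SE 0.13, adjusted p = 1.6e-10).

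dd_Smed_v6_10199_0_1 matched human SLC10A2, a sodium-coupled bile acid transporter, and first rose before it fell. In control it had 20.9 ± 1.2 CPM at 0 hpa, 33.1 ± 2.4 CPM at 3 hpa and 9.53 ± 1.4 CPM at 24 hpa (SD, n = 5). In the bmp4-labelled libraries the 3 hpa values of 37.0, 37.2, 38.8, 40.3 and 42.7 CPM lay above all of 0 hpa, with 17.9, 19.0, 19.4, 20.8 and 23.1 CPM (log2 fold change 0.91, SE 0.10, adjusted p = 4.1e-10). It was 1 of the 6 members called higher at that time. From 3 to 24 hpa it fell by 1.55 on the log2 scale (SE 0.10, adjusted p = 3.4e-18), to 10.1, 11.6, 14.2, 15.04 and 15.5 CPM. At 48 hpa it had 13.9, 19.3, 21.2, 21.2 and 26.1 CPM against 11.4, 12.5, 13.8, 14.6 and 17.4 CPM in control (0.57, SE 0.10, adjusted p = 9.8e-06), with overlap.

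The oxidoreductases were dd_Smed_v6_10791_0_1, matching human FOXRED1, which helps to assemble complex I of the respiratory chain, and dd_Smed_v6_10364_0_1, matching the short-chain dehydrogenase DHRS11. The FOXRED1-like transcript was level in control up to 3 hpa (24.4 ± 1.5 and 24.3 ± 3.2 CPM), had 6.38 ± 1.0 CPM at 24 hpa and 15.2 ± 3.1 CPM at 48 hpa (SD, n = 5). In the bmp4-labelled libraries it went from 20.2, 20.6, 22.5, 23.4 and 24.9 CPM at 0 hpa to 6.48, 6.63, 7.29, 7.45 and 8.47 CPM at 16 hpa, a change of -1.68 (log2, SE 0.15, adjusted p = 7.2e-14), and rose by 0.81 from 24 to 48 hpa (SE 0.14, adjusted p = 5.6e-05). In control every library of 48 hpa was still below every library of 0 hpa. Its 48 hpa difference of 0.39 (SE 0.14, adjusted p = 0.024) was lost without control replicate 1 (adjusted p = 0.086), control replicate 4 (0.086) or bmp4 RNAi replicate 3 (0.067).

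The DHRS11-like transcript had 6.53 ± 1.4 CPM at 0 hpa and 2.92 ± 0.84 CPM at 24 hpa in control (SD, n = 5). In the bmp4-labelled libraries it stood at 6.83 to 8.35 CPM at 6 hpa and fell only later, with 5.03, 5.37, 5.90, 6.72 and 7.36 CPM at 0 hpa and 2.98, 3.48, 3.62, 4.29 and 4.97 CPM at 24 hpa (log2 fold change -0.69, SE 0.21, adjusted p = 0.0075 for dd_Smed_v6_10364_0_1). Its 48 hpa difference of 0.66 (SE 0.22, adjusted p = 0.012) was lost without control replicate 1 (adjusted p = 0.064) or control replicate 2 (0.061).

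dd_Smed_v6_1068_0_1, with a universal stress protein (Usp) domain first known from bacteria, was the most abundant of the 10. Control libraries had 106, 106, 118, 118 and 129 CPM at 0 hpa and 50.2 to 63.7 CPM at 16 hpa, and stayed at 49.7 to 58.5 CPM at 48 hpa. In the bmp4-labelled libraries the values went from 96.1, 101.1, 114, 116 and 119 CPM to 53.1, 60.6, 66.5, 66.8 and 72.2 CPM at 24 hpa, a change of -0.81 (log2, SE 0.11, adjusted p = 1.6e-08). At 48 hpa they had 59.8, 65.3, 68.9, 81.4 and 92.3 CPM, all above the control libraries (0.47, SE 0.11, adjusted p = 0.00028).

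**Figure D5:**
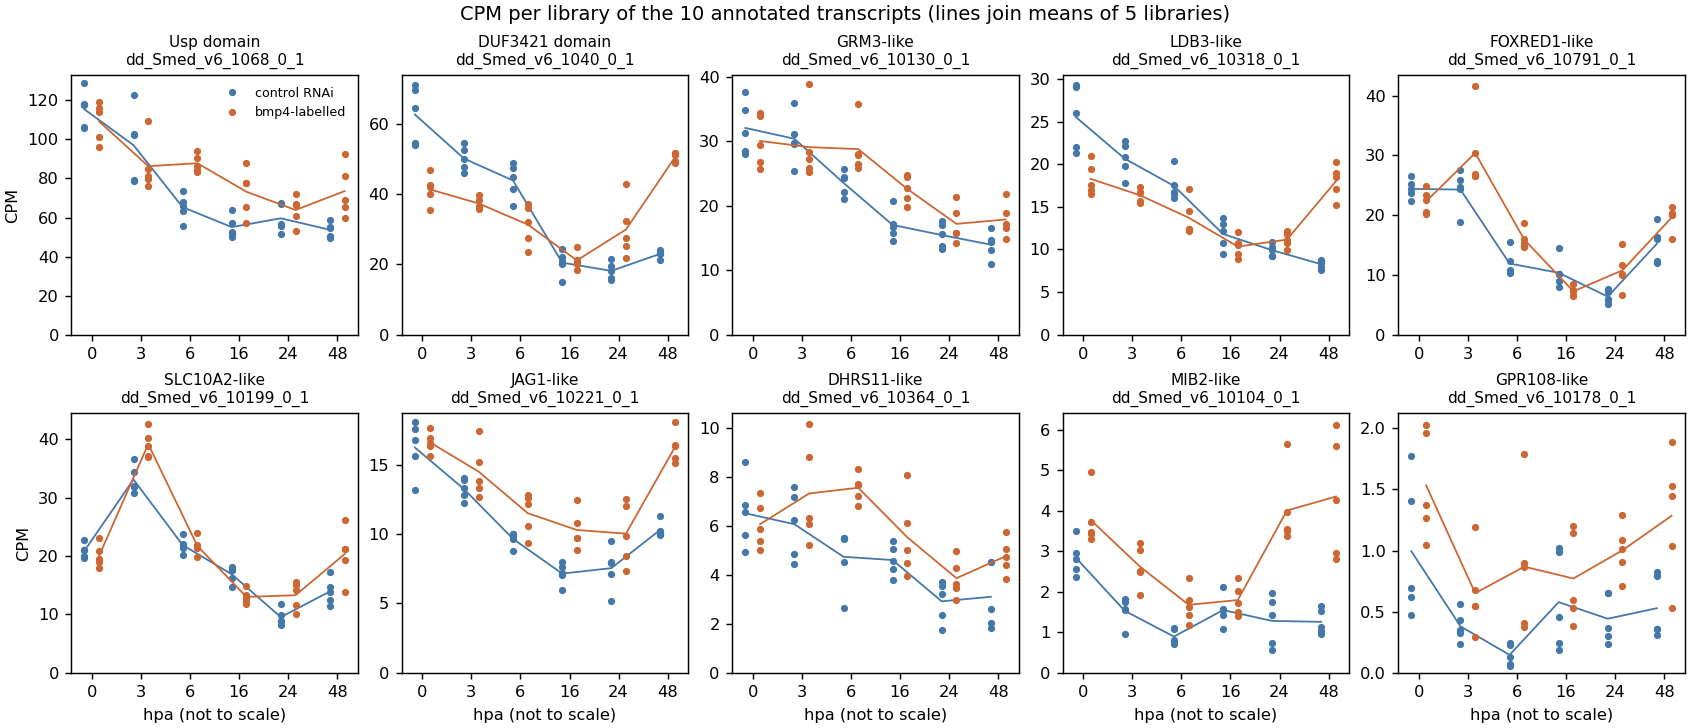
CPM of the 10 annotated transcripts in each library against time, 5 points per group, with lines through the means and a scale from 0 in each panel. The JAG1-like, LDB3-like and DUF3421 transcripts of the bmp4-labelled libraries were above every control library at 48 hpa, with lowest values of 15.1, 15.2 and 48.7 CPM, whereas the GRM3-like transcript stayed low in both conditions.

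In all, each of the 10 annotated transcripts was called higher in the bmp4-labelled libraries than in control at 48 hpa (0.38 to 1.81, log2). The rule asked for a fall in control alone, which favours this direction, so the count is a description. The CPM of the 2 groups overlapped for the GRM3-like, GPR108-like, SLC10A2-like, FOXRED1-like and DHRS11-like transcripts. The FOXRED1-like and DHRS11-like calls were also lost without 1 library. The rows read held 794 transcripts that were tested, of which 21% were higher and 23.3% lower than control at 48 hpa. At 24 hpa 15.5% of the 794 were lower and 20.2% higher than at 0 hpa in the bmp4-labelled libraries. Of 7 G protein-coupled receptors, 1 was a member, 2 were lower and 0 higher at 24 hpa than at 0 hpa in the bmp4-labelled libraries, and 3 were higher and 0 lower than control at 48 hpa. Of 17 muscle and matrix proteins 1 was a member, 4 were lower and 4 higher at 24 hpa, and 6 were higher and 4 lower than control at 48 hpa. Of 22 solute transporters 1 was a member, 8 were lower and 4 higher at 24 hpa, and 9 were higher and 1 lower than control at 48 hpa. The other 11 lists held no member. The list of ion channels and neurotransmitter receptors among these did not take in the GRM3-like transcript. The rest cover vesicle release, cilia, proteases, cytochrome P450, TRAF proteins, innexins, ribosomes, cell division, kinases and transposons. Among them 20 of 27 cilia transcripts were higher than control at 48 hpa and 1 lower, and 9 of 16 transcripts of DNA replication, repair and cell division were lower and 0 higher.

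Among the members without an annotation, those with the highest and the lowest called differences at 48 hpa were taken, so both directions were set by this choice. By size, the large differences were mostly upward. Over all members, annotated or not, 31 had a log2 fold change at or over 1 and 5 had one at or under -1. dd_Smed_v6_11636_0_1, of the earliest class, had 2.25 to 3.37 CPM in control at 0 hpa and 0.0611, 0.184, 0.205, 0.253 and 0.461 CPM at 48 hpa, from 1 to 9 counts. The bmp4-labelled libraries fell to 0.474 to 0.689 CPM at 6 hpa (log2 fold change -1.92, SE 0.28, adjusted p = 3.1e-07) and had 1.95, 2.36, 2.98, 3.65 and 3.77 CPM at 48 hpa. The 48 hpa difference was 3.60 (SE 0.32, adjusted p = 2.8e-14). dd_Smed_v6_4427_0_1 had 11.6, 13.1, 13.8, 14.9 and 15.3 CPM in control at 0 hpa, 2.72 to 4.62 CPM at 24 hpa and 0.921, 1.07, 1.08, 1.102 and 3.12 CPM at 48 hpa. In the bmp4-labelled libraries it held 12.6 to 17.1 CPM at 16 hpa and 11.1, 12.3, 13.2, 13.5 and 14.1 CPM at 48 hpa, a difference from control of 3.17 (SE 0.20, adjusted p = 1.4e-19). Its change from 0 to 24 hpa there was -0.57 (SE 0.16, adjusted p = 0.0038), so the decline that brought it into the set was small under this label.

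The 2 lowest had their highest mean at 16 hpa in both conditions, although the libraries of 16 hpa overlapped with those of 0 hpa for both transcripts in each condition. dd_Smed_v6_12815_0_1 had 1.80 to 3.43 CPM in control at 0 hpa, 0.418 to 1.08 CPM at 6 hpa and 2.02 to 3.55 CPM at 16 hpa. The bmp4-labelled libraries had 0.811, 0.873, 2.06, 2.35 and 3.93 CPM at 0 hpa and 3.16, 4.07, 4.64, 4.76 and 4.84 CPM at 16 hpa. This rise was called (log2 fold change 1.08, SE 0.27, adjusted p = 0.0018 by edgeR), though the highest 0 hpa library lay above the lowest of 16 hpa. At 48 hpa they had 0.264, 0.509, 0.818, 0.916 and 1.13 CPM against 1.38, 1.71, 2.15, 2.69 and 2.71 CPM in control. The 48 hpa difference was -1.51 (SE 0.33, adjusted p = 0.00018). dd_Smed_v6_17217_0_1 dipped in control from 1.23 to 1.78 CPM at 0 hpa to 0 to 0.487 CPM at 6 hpa and stood at 1.24 to 2.32 CPM at 16 hpa. At 48 hpa it had 0, 0.162, 0.324, 0.362 and 0.491 CPM in the bmp4-labelled libraries, from 0 to 9 counts, and 0.460 to 0.972 CPM in control. Its rise from 0 to 16 hpa in the bmp4-labelled libraries was 0.73 (SE 0.37, adjusted p = 0.14) and was not called. The 48 hpa difference of -1.39 (SE 0.52, adjusted p = 0.032) was lost without any 1 of control replicates 1, 4 and 5 and bmp4 RNAi replicates 1 and 2 (adjusted p = 0.052 to 0.11) and with no filter on low counts (0.051).

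The members had a somewhat higher median spread between pools than all transcripts tested, in each of the 12 groups. The ratio of the largest to the smallest CPM + 0.5 within a group had a median over the members of 1.40 in control at 0 hpa, the group the rule limited, beside 1.34 over all transcripts tested. In the 11 other groups the median over the members lay between 1.39 and 1.63, beside 1.27 to 1.44. A ratio of 4 or more occurred in 3 members at 6 hpa and 4 members at 24 hpa in the bmp4-labelled libraries, and in none elsewhere. In these 2 groups 0.551% and 1.01% of all transcripts tested had such a ratio, the latter the highest share of the 12 groups.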

How the data were processed

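Total polyadenylated RNA of 60 wound pools was sequenced (12 groups of 5). Per the labels and the methods of the study, the authors aligned 50-base reads to the dd_Smed_v6 transcriptome with bowtie under its best option, counted reads per contig with coverageBed and summed isotigs. The deposited values are raw counts per transcript. Strand use, and how many alignments were kept for a read with several equally good matches, are not given in the sources used here. The submitters' processing notes name CASAVA 1.9, cutadapt 1.8, Bowtie 1.2, SAMtools 1.6 and DESeq, without roles.

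Members were taken by the rule in the report from CPM by column total. All 60 libraries entered a single edgeR 4.0.16 quasi-likelihood fit (R 4.3.3; filterByExpr at a count minimum of 10 and a total minimum of 15, leaving 18510 transcripts; TMM factors of 0.926 to 1.12; robust option; a mean per group), with two-sided tests, Benjamini-Hochberg adjustment within each comparison over all transcripts and calls at an adjusted p under 0.05. The biological coefficient of variation was 12.5%. SE values were derived from the F statistic. The labels do not say that the pools are separate experiments, and p-values measure the spread between pools. Counts were also simulated for the 48 hpa comparison, with the same coefficient of variation of 12.5% for every transcript. Means were equal in all groups apart from a small set of transcripts changed 2-fold. Of that set 88.2% were recovered, with 11 false calls, in a test of 18088 transcripts. Real transcripts differ in spread, so these rates need not hold for the data. Alternatives were DESeq2 1.42.0, RLE factors, library totals, no filter, fits of the compared groups alone, the replicate number as a block, and leaving out each library.

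Named transcripts were every member annotated in the first 1200 rows of a longer supplementary sheet, with a human blastx match or a Pfam domain, and the 2 highest and 2 lowest called differences at 48 hpa among the others. bmp4 and equinox were added from IDs in the study's text. The members and the lists were chosen with earlier results of these data known. Columns used numbered 60 and none was left out. No sequence file was used here.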

Additional observations from a re-analysis of the deposited data

Results flagged for a closer look

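Among 132 groups of 5 libraries checked, 8 had a library whose gap to the nearest other passed Dixon's 95% limit, and chance alone flags about 1 in 20 groups. The transcript with a Usp domain, dd_Smed_v6_1068_0_1, had 109 CPM in replicate 2 of the bmp4-labelled libraries at 3 hpa, where the other libraries had 76.4 to 85.1 CPM. The GRM3-like transcript, dd_Smed_v6_10130_0_1, had 38.8 CPM in the same library against 25.3 to 28.3 CPM, and 35.7 CPM in replicate 3 at 6 hpa against 25.9 to 28.0 CPM. The FOXRED1-like transcript, dd_Smed_v6_10791_0_1, had 41.5 CPM in replicate 4 of the bmp4-labelled libraries at 3 hpa, the shallowest library, against 26.6 to 30.4 CPM. It was low in replicate 1 at 48 hpa, with 16.0 CPM against 20.0 to 21.3 CPM. The JAG1-like transcript, dd_Smed_v6_10221_0_1, had 11.3 CPM in control replicate 3 at 48 hpa against 9.92 to 10.2 CPM. The MIB2-like transcript, dd_Smed_v6_10104_0_1, was high in the bmp4-labelled libraries in replicate 5 at 0 hpa (4.96 CPM against 3.30 to 3.71) and in replicate 2 at 24 hpa (5.65 CPM against 3.36 to 3.96).

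The transcript with a DUF3421 domain, dd_Smed_v6_1040_0_1, moved in opposite directions from 0 to 48 hpa in CPM by column total. Every control library at 48 hpa lay below every control library at 0 hpa, a change of -1.42 in log2(mean CPM + 0.5), and every bmp4-labelled library at 48 hpa lay above those at 0 hpa, a change of 0.28. The changes differ by 1.71 on that scale, and this difference was not tested, since the control fall chose the transcript. With TMM factors the rise was 0.18 (log2, SE 0.13, adjusted p = 0.31 by edgeR).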

How the results depend on the processing

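The membership depended on the pseudocount, with 104 members at 1 (103 shared) and 360 at 0.1 (150 shared). With TMM factors in the CPM it was 163 (153 shared), and without each control library in turn it was 131 to 171, the lowest without replicate 3 at 0 hpa. The rise of members from 24 to 48 hpa in the bmp4-labelled libraries fell from 39 to 23 when these groups were fitted alone, on fewer libraries. The share called higher over all transcripts tested fell from 3.3% to 0.701%. The other counts of members called in the main direction stayed within 1.5 times under each alternative run. Leaving out 1 library gave 40 to 55 lower at 3 hpa, 70 to 83 at 6 hpa, 111 to 118 at 16 hpa, 126 to 137 at 24 hpa, 98 to 105 at 48 hpa, 77 to 87 for 24 against 3 hpa, 32 to 40 higher for 48 against 24 hpa, and 84 to 89 higher for bmp4-labelled against control at 48 hpa. Over all transcripts the calls also moved between these fits, with 499 to 1076 lower at 3 hpa. For bmp4-labelled against control at 48 hpa DESeq2 called 88 members higher and 9 lower, beside 16.8% and 19.6% of all transcripts tested.

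Scaling by library totals alone moved the share of higher among all called transcripts from 56.7% to 79.5% at 3 hpa, from 52.0% to 66.8% at 16 hpa, from 51.4% to 78.4% at 48 hpa and from 34.3% to 60.5% for 48 against 24 hpa, whereas the members gave 47, 107 and 93 lower and 43 higher. Of all transcripts tested, 2.56%, 9.58% and 6.84% were lower and 5.41% higher in these comparisons under that scaling. Few same-numbered libraries deviated together, with at most 2 of 5 pairs above a correlation of 0.1. For 48 against 0 hpa 3 of 5 libraries correlated best with their own number, and 2 of 5 for 48 hpa against control. With the replicate number as a block 55, 85, 118, 133 and 102 members were lower than 0 hpa at the 5 times, beside 4.54%, 5.23%, 13.4%, 14.6% and 12.3% of all transcripts tested. For 24 against 3 hpa 86 were lower, beside 7.79%. Higher were 39 at 48 than at 24 hpa and 87 than control at 48 hpa, beside 3.07% and 17.1%. Of 112 pairs of a named transcript and a comparison, 85 kept their call under each alternative and none turned direction after a call. Counts under about 10 per library limit the GPR108-like and the lowest unannotated transcripts. They also limit the size of the 48 hpa difference of dd_Smed_v6_11636_0_1, which had 1 to 9 counts in control at 48 hpa.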
